A study of Mus musculus with 21 samples.

Results

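The glucocorticoid and mineralocorticoid response genes are 8 genes chosen by name from the steroid response pathway: the receptors Nr3c1 and Nr3c2, the steroid-converting enzymes Hsd11b1 and Hsd11b2, and the response genes Fkbp5, Tsc22d3, Sgk1 and Zbtb16. All 8 were among the 24062 genes of the count table, and all 8 passed the low-count filter that kept 15936 genes. In wild-type tumours of both sexes 7 of the 8 were lower than in normal colon, where 19.3% (males) and 24.0% (females) of all genes tested were lower. Between male tumours 6 of the 8 were higher in the knock-in, against 9.30% of all genes, and these 6 became 1 when wild-type male tumour replicate 1 was left out.

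Glucocorticoids such as corticosterone act through the glucocorticoid receptor, and aldosterone acts through the mineralocorticoid receptor, which also binds glucocorticoids with high affinity. The enzyme encoded by Hsd11b2 inactivates corticosterone in aldosterone target cells, whereas that encoded by Hsd11b1 regenerates it. In the distal colon this system sets sodium uptake and potassium secretion by surface colonocytes, and glucocorticoid signalling restrains inflammation in the mucosa.

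Colon RNA of C57BL/6 mice was sequenced in 21 libraries, which fell into 7 groups of 3. Tumours had been induced with azoxymethane and dextran sulfate sodium (AOM/DSS), a carcinogen followed by an agent that causes colitis. The wild-type groups were male normal colon, male tumour, female normal colon and female tumour, and the App NL-G-F knock-in groups were male normal colon, male tumour and female normal colon; no female knock-in tumour was analysed here. App NL-G-F carries a humanised amyloid-beta sequence with 3 familial Alzheimer's mutations in the endogenous App gene, a change of sequence that counts per gene do not show. The normal libraries were labelled as non-treated, while the design text describes adjacent normal tissue and, in tumour-free mice, unaffected colon, so whether each normal sample had received AOM/DSS was not settled by the sources used here. The mice's ages were not given, and neither was whether libraries came from separate mice, so the p-values measure the spread between these libraries. RNA was converted with random hexamers after ribosomal RNA removal, and whether the counting used strand was not given.

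The libraries held 3414123 to 26174008 counts assigned to genes. Lists of cell-type markers showed large differences in tissue makeup. All 8 smooth muscle markers were lower in tumour than in normal colon in each of the 3 tumour comparisons, with median log2 differences of -4.03 (wild-type males), -2.56 (knock-in males) and -4.20 (wild-type females). Of 7 markers of differentiated colonocytes, 6, 5 and 7 fell in these comparisons, and of 5 general epithelial markers 5, 0 and 5 fell, by medians of -0.50, -0.22 and -0.59. Endothelial markers rose in 1, 0 and 4 of 5. Of 6 fibroblast markers, 0, 1 and 3 rose and 1 fell in each comparison. Leukocyte markers rose in 0, 0 and 1 of 5 and fell in 0, 1 and 1, and enteric neuron markers rose in 0, 0 and 1 of 5 and fell in 3, 2 and 3. Of 4 mesothelial markers 1, 0 and 0 rose and 0, 1 and 3 fell, and of the 2 adipocyte markers tested out of 5, 1, 0 and 0 fell. The summed epithelial markers lay between 4260 and 7989 CPM (counts scaled to a common library size, as described next) in every library, and the adipocyte markers Adipoq and Lep were at 0 in all tumour libraries of each wild-type sex.

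**Figure D1:**
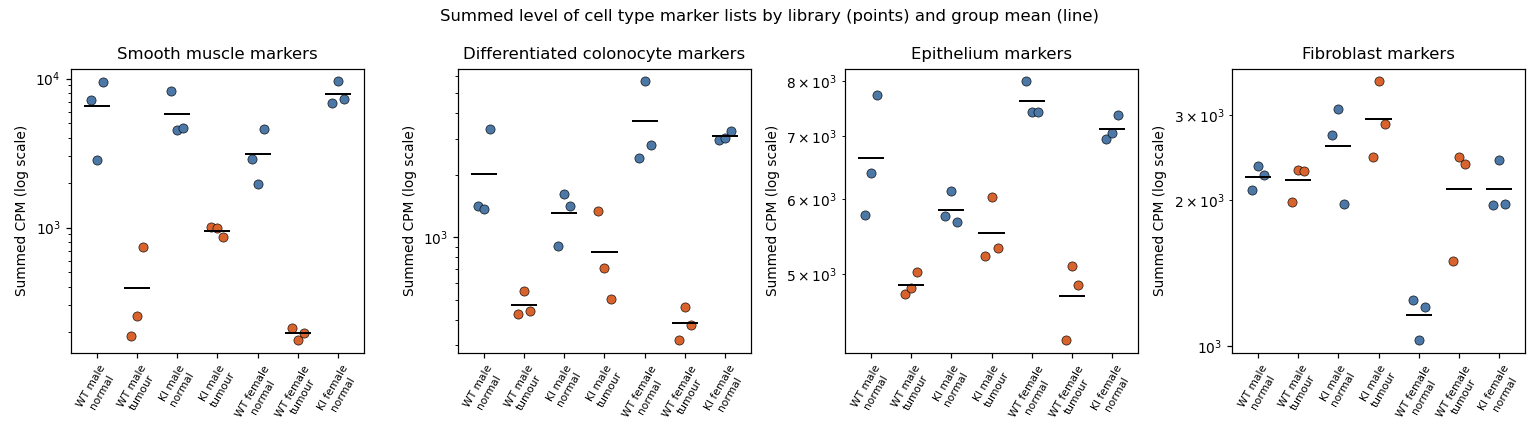
Summed CPM of the markers of smooth muscle, differentiated colonocytes, epithelium and fibroblasts by group on a log axis, with 1 point per library and the mean as a line. Smooth muscle markers lay between 2836 and 9533 CPM in wild-type male normal colon and between 188 and 742 CPM in wild-type male tumours.

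Counts were scaled with edgeR's TMM factors and tested with its quasi-likelihood test over all 15936 genes, with Benjamini-Hochberg adjustment, and a gene was called at an adjusted p under 0.05. Fold changes are given as log2 differences with their standard error (SE). All values below are CPM unless a scale is named, and each group has 3 libraries.

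Per kilobase of the gene's longest annotated transcript, Hsd11b2 had the highest mean level of the 8 genes in every group. It stood at 192 ± 48.2 CPM per kb (SD, n = 3) in normal colon of wild-type males. In that group it was followed by Sgk1 at 61.9 ± 23.3 CPM per kb and Nr3c2 at 43.9 ± 18.1 CPM per kb, which did not differ beyond their spread. Next came Tsc22d3, Nr3c1 and Fkbp5, at means of 23.5, 22.9 and 19.2 CPM per kb, again within each other's spread. Zbtb16 stood at 7.24 ± 1.16 CPM per kb and Hsd11b1 was lowest at 1.87 ± 0.84 CPM per kb. In wild-type male tumours Hsd11b2 at 25.8 ± 6.54 and Sgk1 at 24.0 ± 6.96 CPM per kb still led but were no longer apart. Nr3c1 came next at 10.2 ± 0.17 CPM per kb, with Nr3c2 at 9.56 ± 0.69 within its spread of it. Tsc22d3 followed at 7.79 ± 0.88 and Fkbp5 at 5.31 ± 0.05 CPM per kb. Hsd11b1 at 1.23 ± 0.22 and Zbtb16 at 1.14 ± 0.56 CPM per kb were at the bottom. With the shortest coding transcript in place of the longest transcript the order was another. Nr3c2 and Sgk1 then led at 961 and 710.2 CPM per kb in wild-type male normal colon, because short annotated fragments set their length. Raw counts per library ran from 9 to 119 for Hsd11b1 and from 130 to 15623 for Hsd11b2.

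**Figure D2:**
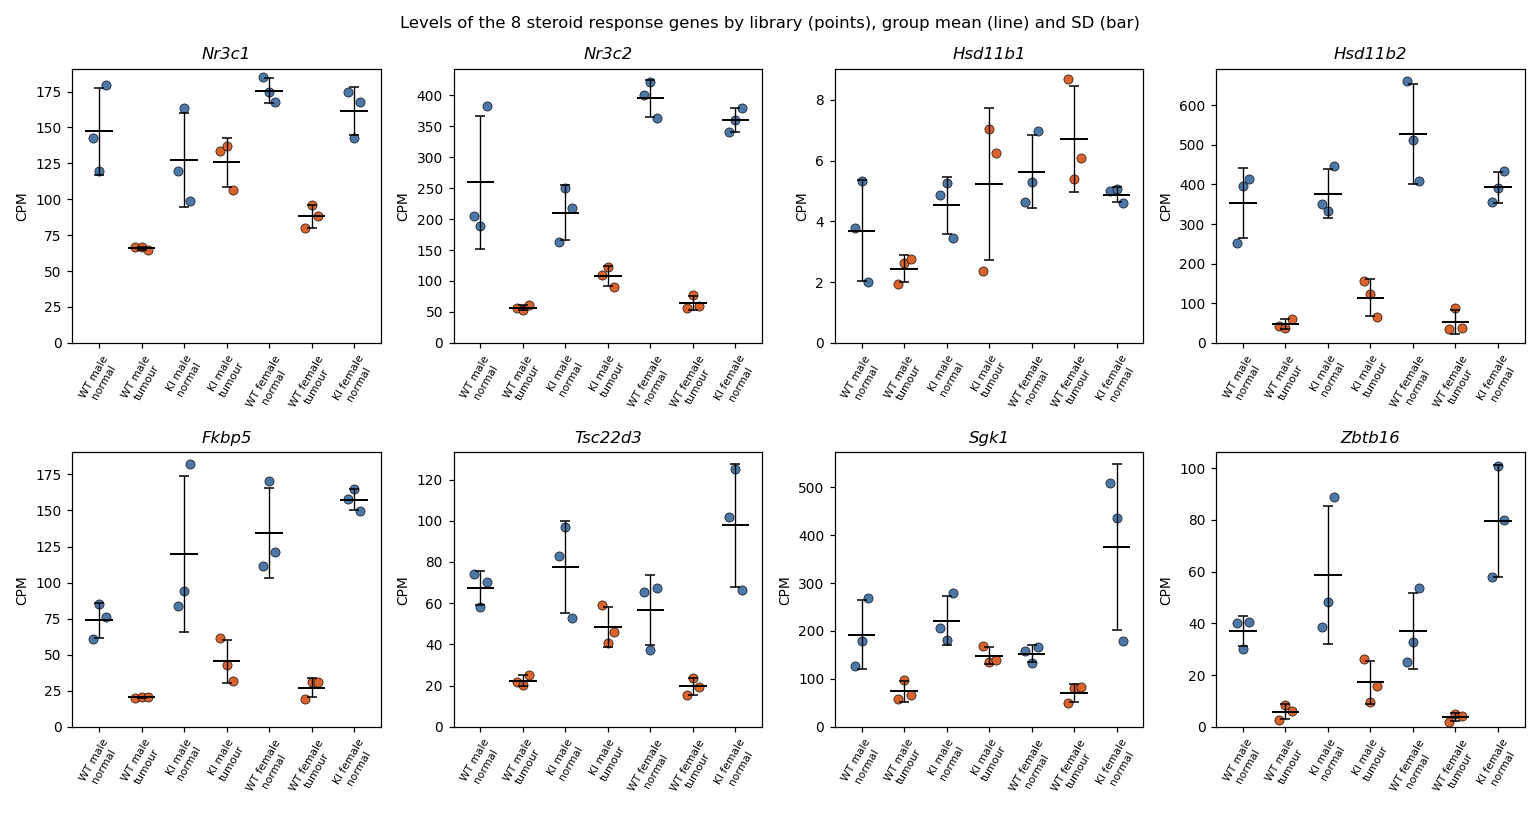
CPM of each of the 8 genes by group of genotype, sex and tissue, with 1 point per library, the group mean as a line and the SD as a bar. For Nr3c2, Hsd11b2, Fkbp5, Sgk1 and Zbtb16 the tumour libraries lie below the normal libraries of the same genotype and sex in all 3 pairs of groups.

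Nr3c1 encodes the glucocorticoid receptor, a hormone-activated transcription factor present in most cell types (GENCODE vM21, mm10, chromosome 18, 39410545 to 39519421, minus strand). In wild-type males it stood at 143, 120 and 180 CPM in normal colon and at 66.5, 66.6 and 64.7 CPM in tumours. The groups did not overlap, and the tumour libraries lay within 2 CPM of each other. The log2 difference was -1.16 (SE 0.17), a 2.23-fold lower level, with an edgeR adjusted p of 5.52e-05. In wild-type females it stood at 185, 174 and 167 CPM in normal colon and at 79.9, 95.7 and 88.6 CPM in tumours, again without overlap. The log2 difference was -0.996 (SE 0.16, edgeR adjusted p = 7.34e-05). Knock-in male values were 120, 163 and 99.0 CPM in normal colon and 134, 137 and 106 CPM in tumours. These groups overlapped throughout, and the log2 difference was -0.02 (SE 0.16, edgeR adjusted p = 0.95). Knock-in female normal colon held 174, 143 and 168 CPM, which overlapped the wild-type female normal libraries. In tissue RNA, fewer cells of a type and less RNA per cell cannot be told apart, and the part of the markers above in these differences was not tested.

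Nr3c2 encodes the mineralocorticoid receptor, the aldosterone receptor of sodium-transporting epithelia (chromosome 8, 76899442 to 77245012, plus strand). Wild-type male normal colon held 206, 190 and 383 CPM and wild-type male tumours 55.8, 53.0 and 61.0 CPM. One normal library stood well above the other two, and the groups were far apart. The difference was -2.19 (SE 0.22), a 4.57-fold lower level (edgeR adjusted p = 5.84e-06). Wild-type female normal colon held 400.3, 421 and 363 CPM and tumours 56.1, 76.9 and 59.2 CPM. The log2 difference there was -2.62 (SE 0.23, edgeR adjusted p = 1.80e-07). In knock-in males the receptor was also lower in tumours, but by less: 162, 250.4 and 218 CPM in normal colon and 110.1, 123 and 90.3 CPM in tumours, a log2 difference of -0.96 (SE 0.21, edgeR adjusted p = 0.00642). The groups did not overlap. Knock-in female normal colon held 341, 361 and 379 CPM.

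The receptors were also compared as a ratio, in which library scaling cancels. Per kilobase, the level of Nr3c2 was 1.87 ± 0.40 times that of Nr3c1 (SD, n = 3) in normal colon of wild-type males and 0.93 ± 0.08 times in their tumours. Knock-in males gave nearly the same pair of values, 1.85 ± 0.49 in normal colon and 0.93 ± 0.04 in tumours. In females the ratio was 2.45 ± 0.16 in wild-type normal colon, 2.44 ± 0.31 in knock-in normal colon and 0.79 ± 0.08 in wild-type tumours. In each of the 3 tumour comparisons every tumour library lay below every normal library, with differences of the log2 ratio of -0.98, -0.96 and -1.64. The exact two-sided permutation test gave p = 0.1 for each, the smallest that 3 against 3 libraries allow, and 0.16 after adjustment over 8 ratio tests. Between knock-in and wild-type male tumours the log2 ratio differed by 0.00011 (exact permutation p = 1), so both receptors stood higher in knock-in tumours by the same factor.

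**Figure D3:**
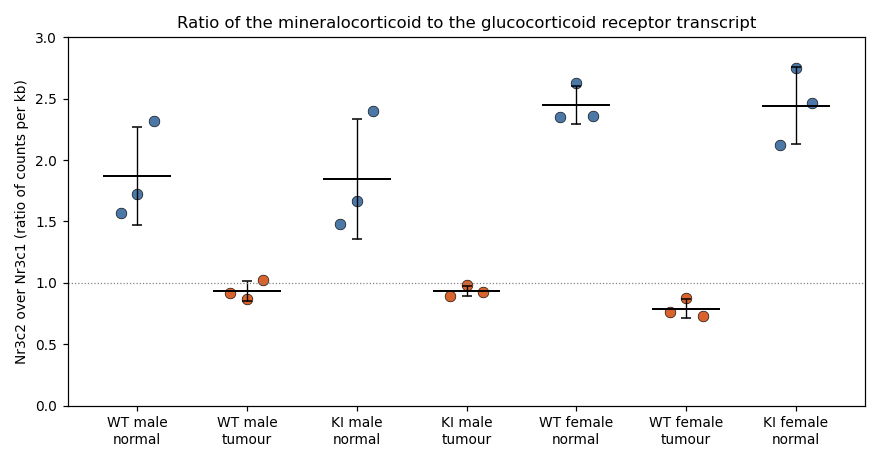
Ratio of Nr3c2 to Nr3c1, both as counts per kilobase, by group, with 1 point per library, the mean as a line and the SD as a bar. The receptor ratio averages 1.85 to 2.45 in the normal groups and 0.79 to 0.93 in the tumour groups.

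Hsd11b2 encodes 11-beta-hydroxysteroid dehydrogenase type 2, which inactivates corticosterone and so leaves the mineralocorticoid receptor to aldosterone (chromosome 8, 105518755 to 105523988, plus strand). Wild-type male normal colon held 252, 395 and 413 CPM, and tumours held 43.7, 37.8 and 61.0 CPM. Every normal library was several-fold above every tumour library. The log2 difference was -2.88 (SE 0.37), a 7.38-fold lower level (edgeR adjusted p = 3.73e-05). In wild-type females the values were 660.4, 513 and 409 CPM in normal colon and 34.6, 88.2 and 37.3 CPM in tumours, a 9.87-fold lower level (log2 difference -3.30, SE 0.38, edgeR adjusted p = 3.48e-06). In knock-in males they were 350.3, 332 and 448 CPM in normal colon and 155, 124 and 64.1 CPM in tumours, without overlap. That difference was -1.72 (SE 0.35, edgeR adjusted p = 0.00501). Knock-in female normal colon held 355, 390 and 434 CPM, overlapping wild-type females.

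Hsd11b1 encodes the type 1 enzyme, which regenerates active glucocorticoid from its inactive form (chromosome 1, 193221634 to 193264075, minus strand). It stayed below 9 CPM in every library. Wild-type males held 3.78, 5.32 and 1.99 CPM in normal colon and 1.94, 2.62 and 2.76 CPM in tumours, and the groups overlapped (log2 difference -0.63, SE 0.39, edgeR adjusted p = 0.22). Wild-type females held 4.65, 5.30 and 6.97 CPM in normal colon and 8.69, 5.38 and 6.09 CPM in tumours (log2 difference 0.26, SE 0.37, edgeR adjusted p = 0.574). Knock-in males held 4.86, 5.25 and 3.46 CPM in normal colon and 2.38, 7.04 and 6.26 CPM in tumours (log2 difference 0.20, SE 0.36, edgeR adjusted p = 0.716). Hsd11b1 was the 1 member of the 8 with no call in any tumour comparison, and its 9 to 119 counts a library limit what could be detected. The Hsd11b2 to Hsd11b1 ratio per kilobase averaged 125 in normal colon and 21.1 in tumours of wild-type males, and 107 and 9.50 in wild-type females, without overlap (log2 ratio differences -2.39 and -3.66, exact permutation p = 0.1 each). In knock-in males it averaged 94.9 and 33.3, and the libraries overlapped (-1.88, exact permutation p = 0.2).

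The glucocorticoid receptor binds DNA as a pair of molecules at an inverted repeat of AGAACA, and RefSeq promoter windows of GRCm38.p6, from 250 bases before to 50 after a start, were searched on both strands for this hexamer and for the full element, AGAACA and TGTTCT with any 3 bases between them. The windows are shown for the 2 members in which a match was found. Windows existed for 5 members, Nr3c2, Hsd11b1, Fkbp5, Tsc22d3 and Sgk1, and for none of Nr3c1, Hsd11b2 and Zbtb16. The Sgk1 stretch is the 250 bases before 1 of its starts, chr10:21993640-21993889 on the plus strand, with the full element in capitals at chr10:21993701-21993715. The Tsc22d3 stretch lies 215 to 150 bases before a start, chrX:140600672-140600737 on the minus strand, with the hexamer in capitals as it reads on the opposite strand to AGAACA.
Sgk1: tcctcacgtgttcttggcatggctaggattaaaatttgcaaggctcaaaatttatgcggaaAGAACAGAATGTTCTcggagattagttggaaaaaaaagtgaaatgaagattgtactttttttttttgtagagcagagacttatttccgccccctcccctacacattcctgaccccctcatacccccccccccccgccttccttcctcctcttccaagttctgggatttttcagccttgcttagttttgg
Tsc22d3: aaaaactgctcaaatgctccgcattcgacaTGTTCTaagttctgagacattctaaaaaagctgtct
The full element was in 3 of 32851 mouse windows (0.00913%), and 1 of these 3 was that of Sgk1, where it starts 189 bases before the transcription start. The hexamer, which also occurs inside every full element, was in 6233 windows (19.0%), among them 3 of 6 windows of Sgk1 and 1 of 3 of Tsc22d3. It was in no window of Nr3c2, Hsd11b1 or Fkbp5, which says only that these letters are not in those windows.

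Fkbp5 encodes FKBP51, a cochaperone that lowers the receptor's hormone affinity and is itself induced by the receptor (chromosome 17, 28399094 to 28517527, minus strand). Wild-type males held 60.8, 84.9 and 76.1 CPM in normal colon and 20.3, 20.7 and 20.4 CPM in tumours. The tumour libraries were almost identical to each other and far below normal colon (log2 difference -1.85, SE 0.29, edgeR adjusted p = 0.000143). Wild-type females held 112, 170.3 and 121 CPM in normal colon and 19.4, 30.9 and 31.0 CPM in tumours (log2 difference -2.31, SE 0.29, edgeR adjusted p = 6.03e-06). Knock-in males held 83.6, 94.1 and 182 CPM in normal colon and 61.5, 42.9 and 32.0 CPM in tumours, without overlap (log2 difference -1.40, SE 0.28, edgeR adjusted p = 0.00384). Knock-in female normal colon held 158, 165 and 149.9 CPM.

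Tsc22d3 encodes GILZ, a leucine zipper protein induced by glucocorticoids that mediates part of their anti-inflammatory action (chromosome X, 140539528 to 140600659, minus strand). Wild-type males held 73.9, 58.0 and 70.4 CPM in normal colon and 21.6, 20.4 and 25.2 CPM in tumours, without overlap (log2 difference -1.58, SE 0.27, edgeR adjusted p = 0.000301). Wild-type females held 65.6, 37.4 and 67.4 CPM in normal colon and 15.6, 23.9 and 19.2 CPM in tumours (log2 difference -1.54, SE 0.27, edgeR adjusted p = 0.000163). In knock-in males the groups overlapped, at 83.1, 96.8 and 52.9 CPM in normal colon and 59.1, 40.5 and 46.0 CPM in tumours. The difference there was -0.68 (SE 0.26, edgeR adjusted p = 0.0698). Knock-in female normal colon held 102, 125 and 66.2 CPM, and the lowest of these lay among the wild-type female values.

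Sgk1 encodes a kinase induced by both receptors that keeps the epithelial sodium channel at the cell surface (chromosome 10, 21882184 to 21999903, plus strand). Wild-type males held 127, 179 and 269 CPM in normal colon and 57.7, 98.7 and 66.6 CPM in tumours, without overlap (log2 difference -1.38, SE 0.35, edgeR adjusted p = 0.00558). Wild-type females held 158, 134 and 167 CPM in normal colon and 49.0, 80.8 and 82.3 CPM in tumours (log2 difference -1.11, SE 0.34, edgeR adjusted p = 0.0128). The female call was lost without wild-type female tumour replicate 1 (log2 difference -0.91, edgeR adjusted p = 0.0635). Knock-in males held 205, 180.3 and 279.6 CPM in normal colon and 169, 136 and 140.2 CPM in tumours. These did not overlap, but the difference of -0.58 (SE 0.34) was not called (edgeR adjusted p = 0.226).

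Zbtb16 encodes PLZF, a zinc finger repressor strongly induced by glucocorticoids in several tissues and also needed in innate-like lymphocytes (chromosome 9, 48654297 to 48836222, minus strand). Wild-type males held 40.2, 30.2 and 40.7 CPM in normal colon and 2.74, 8.44 and 6.26 CPM in tumours, a 6.95-fold lower level (log2 difference -2.80, SE 0.49, edgeR adjusted p = 0.000419). Wild-type females held 25.2, 32.6 and 53.6 CPM in normal colon and 1.90, 4.91 and 4.02 CPM in tumours, the lowest estimate of the 8 genes in the 3 tumour comparisons (log2 difference -3.33, SE 0.50, edgeR adjusted p = 4.57e-05). Knock-in males held 38.5, 48.3 and 88.8 CPM in normal colon and 26.2, 9.52 and 15.7 CPM in tumours, without overlap (log2 difference -1.77, SE 0.43, edgeR adjusted p = 0.0109). That call was lost without knock-in male normal replicate 3 (log2 difference -1.34, edgeR adjusted p = 0.0612). Knock-in female normal colon held 57.7, 101 and 80.1 CPM, all above the wild-type female libraries.

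Across the tumour comparisons the members were counted against all genes. In wild-type males 7 of 8 were called lower and 0 higher, while 19.3% of all genes tested were called lower and 16.5% higher. In wild-type females 7 of 8 were also lower, against 24.0% of all genes lower and 25.0% higher. In knock-in males 5 of 8, Nr3c2, Hsd11b2, Fkbp5, Zbtb16 and Sgk1, lay below normal colon without overlap, and the first 4 were called, against 9.97% of all genes called lower and 10.4% higher. The members' median log2 differences were -1.72 (wild-type males), -0.82 (knock-in males) and -1.92 (wild-type females), and the median over all genes was 0.01 in each. Without overlap and lower were 7, 5 and 7 members, against 26.4%, 17.5% and 28.6% of all genes. In a fit of the knock-in male libraries alone only Nr3c2 and Hsd11b2 were called lower.

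**Figure D4:**
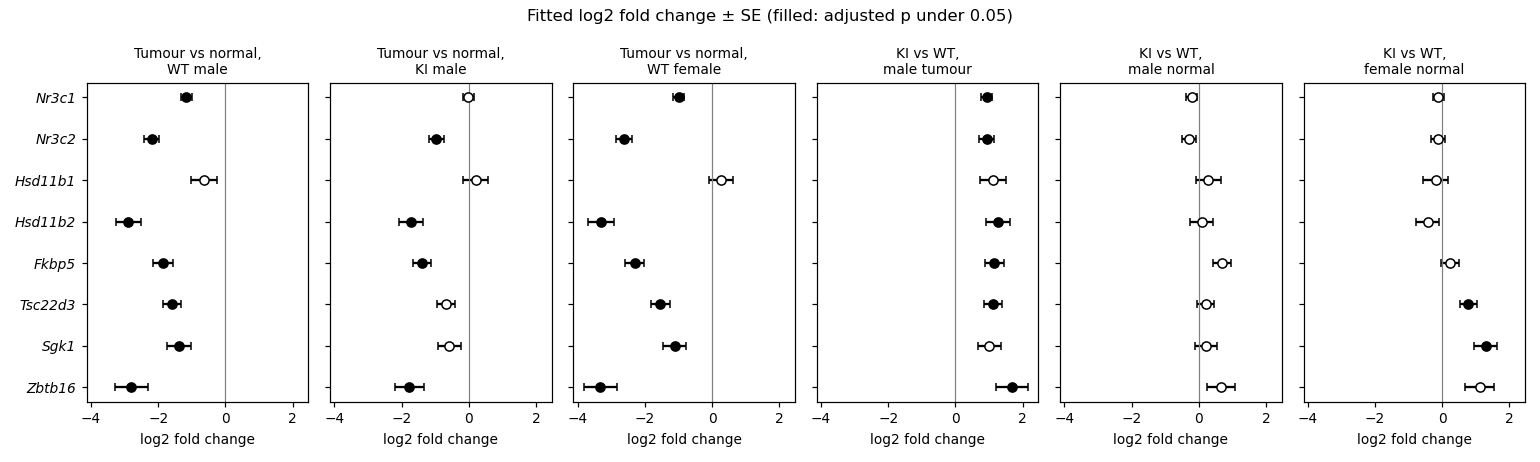
Log2 fold change of each of the 8 genes in the 3 tumour and 3 genotype comparisons, with bars of 1 SE and filled points where the edgeR adjusted p was under 0.05. In both wild-type tumour comparisons 7 of the 8 genes have filled points below 0, and in knock-in against wild-type male tumours all 8 lie above 0.

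Knock-in and wild-type male tumours were compared directly, which asks whether the App allele went with a different tumour level. Of the 8 members 6 were called higher in knock-in tumours and 0 lower, against 9.30% of all genes higher and 5.23% lower. The median of the members was 1.11 and that of all genes 0.05. Nr3c1 rose from 65.9 ± 1.10 to 126 ± 17.0 CPM (SD, n = 3; log2 difference 0.93, SE 0.16, edgeR adjusted p = 0.00412), and Nr3c2 from 56.6 ± 4.06 to 108 ± 16.6 CPM (0.93, SE 0.22, edgeR adjusted p = 0.0133). Each knock-in library exceeded each wild-type library for both receptors. Hsd11b2 rose by 1.26 (SE 0.36, edgeR adjusted p = 0.0300), Fkbp5 by 1.15 (SE 0.29, 0.0177), Tsc22d3 by 1.11 (SE 0.27, 0.0163) and Zbtb16 by 1.68 (SE 0.48, 0.0320). Sgk1 had a difference of 1.01 without overlap that was not called (SE 0.34, edgeR adjusted p = 0.0565), and Hsd11b1 one of 1.11 with overlap (SE 0.39, edgeR adjusted p = 0.0591). Higher without overlap were 7 members, against 20.3% of all genes. Nr3c1 kept its call in all 11 other settings of scaling, filter, test and model and without each of the 6 libraries. The call of Hsd11b2 was lost with limma voom (adjusted p = 0.0969), in a fit of only these groups (0.0734) and with the replicate block (0.0707). It was also lost with the block and a correction for GC content and length (edgeR adjusted p = 0.0655). The same held without any 1 of 5 of the 6 libraries, all but knock-in male tumour replicate 3 (0.0513 to 0.108). That of Zbtb16 was lost in a fit of only these groups (edgeR adjusted p = 0.0905) and with the library numbering as covariate (0.0562). It was also lost without wild-type male tumour replicate 1 (0.148) or 3 (0.0788) or knock-in male tumour replicate 1 (0.121). Nr3c2, Fkbp5 and Tsc22d3 lost their calls in some of the fits without 1 library. Nr3c2 also lost its call with the block and the correction for GC content and length (edgeR adjusted p = 0.0721). The count of 6 fell to 1 without wild-type male tumour replicate 1, and to 3 without wild-type male tumour replicate 3, knock-in male tumour replicate 1 or knock-in male tumour replicate 2. Without knock-in male tumour replicate 1 the 3 included Hsd11b1, which was not among the 6 (edgeR adjusted p = 0.0198). Summed smooth muscle markers were 188 to 742 CPM in the wild-type and 866 to 1002 CPM in the knock-in tumours, though 0 of the 8 were called by edgeR (7 at an unadjusted p under 0.05, median 1.297). Of 7 colonocyte markers 1 was called higher (median 0.87) and of 5 epithelial markers 0 (2 at an unadjusted p under 0.05, median 0.21). Their part in the members' differences was not tested.

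In male normal colon no such difference was called. Of the 8 members 0 were called between knock-in and wild-type, as were 0.0126% of all genes in either direction, and the DESeq2 and limma voom tests also called 0. At an unadjusted p under 0.05 there was 1 member, Fkbp5, with a log2 difference of 0.70 (SE 0.27, edgeR adjusted p = 1), whose libraries overlapped by less than 2 CPM. The tumour difference between genotypes was tested against that in normal colon, as an interaction of genotype and tumour in males. Both receptors were called, Nr3c1 at 1.14 (SE 0.23, edgeR adjusted p = 0.0406) and Nr3c2 at 1.23 (SE 0.30, edgeR adjusted p = 0.0493), while 1.14% of all genes were called higher. The other 6 estimates were all positive, from 0.46 for Fkbp5 to 1.17 for Hsd11b2, and were not called. The 2 receptor calls rest on adjusted values close to the threshold: both were lost in a fit of the male libraries alone (0.114 and 0.127), with the replicate block (0.0548 and 0.0736) and with a correction for GC content and length (0.0922 and 0.132). Both were also lost without wild-type male normal replicate 3, any 1 of the 3 wild-type male tumours, knock-in male normal replicate 1 or 3, or knock-in male tumour replicate 2, and Nr3c2 also without knock-in male tumour replicate 1. Of the fits with 1 library left out, the lowest estimates, 0.98 for Nr3c1 and 0.84 for Nr3c2, came without wild-type male normal replicate 3 (edgeR adjusted p = 0.125 and 0.138). In this interaction the smooth muscle markers had a median of 1.44 (0 of 8 called, 3 at an unadjusted p under 0.05). The colonocyte markers had one of 2.19 (0 of 7 called, 6 at an unadjusted p under 0.05). Epithelial markers had a median of 0.29, leukocyte markers -0.87 and mesothelial markers -2.10, with 0 called. Their part in the receptors' interactions was not tested.

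In female normal colon Sgk1 and Tsc22d3 were called higher in knock-in than in wild-type mice. Sgk1 stood at 509, 436 and 179 CPM in knock-in and at 158, 134 and 167 CPM in wild-type females, so that 2 knock-in libraries were far above and the other just above the wild-type range (log2 difference 1.29, SE 0.34, edgeR adjusted p = 0.0175). Tsc22d3 differed by 0.78 with overlapping libraries (SE 0.26, edgeR adjusted p = 0.0489). Zbtb16 had a difference of 1.11 without overlap that was not called (SE 0.42, edgeR adjusted p = 0.0825). The receptors and enzymes had differences between -0.43 and -0.12, none called. Of all genes 8.97% were called higher and 7.0% lower. In a fit of the 6 female normal libraries alone the calls of Sgk1 and Tsc22d3 were lost (edgeR adjusted p = 0.0617 and 0.107) and Zbtb16 was called (0.0490). The call of Tsc22d3 was also lost with DESeq2 size factors (0.0509), without a low-count filter (0.0645), with the library numbering as covariate (0.0559) and with the GC content and length offset (0.0646). The numbering covariate set apart only tumour libraries, so it could not adjust this comparison. Both calls were lost without wild-type female normal replicate 1 or 2 or knock-in female normal replicate 1 or a (Sgk1 at adjusted p of 0.0591, 0.0832, 0.0741 and 0.0762, Tsc22d3 at 0.0770, 0.215, 0.104 and 0.232). Marker genes moved in the same comparison: 3 of 8 smooth muscle, 4 of 5 endothelial and 3 of 6 fibroblast markers were higher and 4 of 4 mesothelial markers lower in knock-in females, and summed smooth muscle markers were 6815 to 9563 CPM against 1975 to 4566 CPM. Their part in the difference was not tested. Between the sexes this genotype difference of Sgk1 differed by 1.08 (SE 0.47, edgeR adjusted p = 0.245), and of the 8 members 0 passed this interaction with edgeR, DESeq2 or limma voom (1 at an unadjusted p under 0.05), against 2.54% of all genes.

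Between the sexes 1 member was called in 1 of the 3 comparisons. In wild-type normal colon Fkbp5 was higher in females, 112 to 170.3 CPM against 60.8 to 84.9 CPM (log2 difference 0.86, SE 0.27, edgeR adjusted p = 0.0392), while 5.74% of all genes were called higher. That call was lost without any 1 of 5 of the 6 libraries, all but wild-type female normal replicate 3 (edgeR adjusted p from 0.0528 to 0.183, log2 difference 0.66 to 0.98). All 5 endothelial, 3 of 6 fibroblast and 2 of 8 smooth muscle markers were lower and 1 of 7 colonocyte and 2 of 4 mesothelial markers higher in females there; their part was not tested. Nr3c2 had a female-minus-male difference of 0.61 in wild-type (SE 0.21, edgeR adjusted p = 0.0592) and 0.78 in knock-in normal colon (SE 0.21, edgeR adjusted p = 0.0916), neither called by edgeR and both called by DESeq2 and limma voom. Among knock-in normal libraries edgeR called 0 members (3 at an unadjusted p under 0.05, DESeq2 1, limma voom 1), against 0.584% of all genes. In wild-type tumours it also called 0 (2 at an unadjusted p under 0.05, DESeq2 1, limma voom 2), against 0.860% of all genes. Of these, Hsd11b1 stood at 5.38 to 8.69 CPM in female and 1.94 to 2.76 CPM in male tumours (log2 difference 1.47, SE 0.39, edgeR adjusted p = 0.0626). The tumour difference did not pass a test between the sexes for any member: 0 of 8 by edgeR, DESeq2 and limma voom and 0 at an unadjusted p under 0.05, against 1.12% of all genes.

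The rest of the pathway was read from 5 gene lists. Of 18 aldosterone-regulated sodium and potassium transport genes, 11 were lower and 1 higher in wild-type male tumours, 9 lower and 0 higher in knock-in male tumours, and 12 lower and 1 higher in wild-type female tumours, with medians of -0.80, -0.58 and -1.12; of all genes 19.3%, 9.97% and 24.0% were lower. Kcnma1, the BK potassium channel through which colonocytes secrete potassium and which smooth muscle also expresses, fell from 74.6 ± 3.03 to 12.5 ± 2.54 CPM (SD, n = 3) in wild-type males (log2 difference -2.56). Scnn1g, the gamma subunit of the epithelial sodium channel, fell in all 3 tumour comparisons, with log2 differences of -2.47 (wild-type males), -2.52 (knock-in males) and -2.82 (wild-type females). In knock-in males it stood at 56.9 ± 59.3 CPM in normal colon, an SD above the mean, and at 9.80 ± 3.80 CPM in tumours. Atp12a, the colonic proton-potassium pump, fell from 1049 ± 468 to 101 ± 32.1 CPM in wild-type females. Scnn1a, the alpha subunit of the channel, fell by 2.21 there. Wnk1, a kinase that regulates salt transport, was the member of the list that rose, by 0.25 and 0.34 in wild-type males and females, and the male call was lost without any 1 of the 6 libraries. Between male tumours 4 of the 18 were higher in knock-in mice and 0 lower, against 9.30% of all genes higher, among them Kcnma1 (1.70), the sodium-potassium-chloride cotransporter Slc12a2 (0.98) and Scnn1a (0.77). Single libraries moved these counts: the 11 became 7 without wild-type male tumour replicate 1, the 9 became 4 without knock-in male normal replicate 3 and 3 in a fit of the knock-in males alone, and the 4 became 2 without knock-in male tumour replicate 2.

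Genes with a record of glucocorticoid induction did not move as 1 block. Of 25, 6 rose and 4 fell in wild-type male tumours, 0 rose and 1 fell in knock-in male tumours, and 7 rose and 5 fell in wild-type female tumours (medians 0.30, -0.08 and 0.23). Of all genes 16.5%, 10.4% and 25.0% rose and 19.3%, 9.97% and 24.0% fell. Klf9, a zinc finger factor, fell in all 3, with log2 differences of -1.12, -0.46 and -0.97, and was higher by 0.65 in male tumours of the knock-in; the 1 call in knock-in males became 0 without knock-in male normal replicate 2 or 3 or knock-in male tumour replicate 2 or 3. Mertk, a receptor for engulfing dying cells, fell in wild-type males and females (-1.60 and -2.02). Il1r2, the interleukin-1 decoy receptor, rose from 1.63 ± 1.35 to 6.89 ± 1.66 CPM in wild-type males (log2 difference 1.995) and by 2.89 in females, and the cell cycle inhibitor Cdkn1c rose by 1.75 and 2.86. Between male tumours 2 were higher and 2 lower in knock-in mice (median -0.35), the latter being Nfkbia, which encodes an inhibitor of NF-kappa-B, and the repressor Bcl6, against 9.30% of all genes higher and 5.23% lower. The 2 higher became 0 without wild-type male tumour replicate 1. The 2 lower became 0 without wild-type male tumour replicate 2 or knock-in male tumour replicate 2, 6 with the DESeq2 Wald test and 5 in a fit of only these groups. In female normal colon 4 were higher and 0 lower in knock-in mice (median 0.40), against 8.97% and 7.0% of all genes. The 4 were led by Klf15 at 8.78 ± 4.76 against 2.13 ± 0.87 CPM (log2 difference 2.05, SE 0.44). The 6 that rose in wild-type males became 3 and 2 without wild-type male normal replicates 1 and 3, and these 4 became 1 without wild-type female normal replicate 1 or knock-in female normal replicate a.

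Receptor chaperones hold the unliganded receptor ready for hormone. Of 12, 5 rose and 0 fell in wild-type male tumours, 3 rose and 0 fell in knock-in male tumours and 6 rose and 1 fell in wild-type female tumours, with medians of 0.42, 0.43 and 0.47; of all genes 16.5%, 10.4% and 25.0% rose. Hsp90ab1, which encodes the constitutive HSP90, rose from 1196 ± 116 to 1941 ± 68.7 CPM in wild-type males, and the cochaperone Ptges3 rose by 0.88 in knock-in male as well as wild-type female tumours. Fkbp4, whose FKBP52 protein opposes FKBP51 at the receptor, rose by 0.61 in wild-type male tumours. It was lower in male tumours of the knock-in (a log2 difference of -0.64 from wild-type). That was the 1 call among the 12, against 5.23% of all genes lower. In female normal colon Hsp90aa1, the inducible HSP90, was the 1 gene called and lay lower in knock-in mice (-1.17), against 7.0% of all genes lower. The 5 in wild-type males became 1 without wild-type male normal replicate 3, 2 without wild-type male tumour replicate 1 and 3 without wild-type male normal replicate 1 or wild-type male tumour replicate 2 or 3. The 3 in knock-in males became 1 without knock-in male normal replicate 3 or knock-in male tumour replicate 1 or 2.

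Of 9 receptor coregulators 2 rose and 2 fell in wild-type tumours of either sex, against 16.5% of all genes higher and 19.3% lower in males and 25.0% and 24.0% in females. The 2 that rose in males became 1 without any 1 of the 6 libraries, and the 2 in females became 1 without wild-type female normal replicate 2 or 3 or wild-type female tumour replicate 3. Among them the corepressor Nrip1 rose (0.36 in males and 0.37 in females) and the coactivators Ncoa1 (-0.99 and -1.10) and Ncoa3 (-0.69 and -0.75) fell. In knock-in male tumours 0 of 9 were called (1 at an unadjusted p under 0.05), against 10.4% of all genes higher and 9.97% lower. Against wild-type male tumours 1 was higher and 2 were lower, while 9.30% and 5.23% of all genes were. Among them were Ncoa1, higher by 0.55, and the coactivator Crebbp, lower (-0.28). In female normal colon 1 was higher and 0 lower in knock-in mice, against 8.97% and 7.0% of all genes. Of 17 genes of steroid synthesis, metabolism and export 13 were tested, of which 0 rose and 4 fell in wild-type male tumours, 1 rose (the 5-alpha-reductase gene Srd5a1, by 1.10) and 0 fell in knock-in male tumours and 5 rose and 4 fell in wild-type female tumours. In these comparisons 16.5%, 10.4% and 25.0% of all genes rose and 19.3%, 9.97% and 24.0% fell. Nr5a2, which encodes LRH-1, a nuclear receptor that drives steroid synthesis in the intestine, fell from 41.5 ± 28.4 to 2.92 ± 2.34 CPM in wild-type males, and the steroid exporter gene Abcb1a fell by 3.20. In knock-in male tumours Nr5a2, Abcb1a and the 5-alpha-reductase gene Srd5a2 were higher than in wild-type by 2.06, 1.45 and 1.66. They were the 3 calls of that list, against 9.30% of all genes higher. Of these 3 calls 1 was left without any 1 of the wild-type male tumours or knock-in male tumour replicate 1 or 2. H6pd, whose enzyme supplies the cofactor of HSD11B1, rose from 38.0 ± 3.10 to 119.9 ± 32.4 CPM in wild-type female tumours. Cyp21a1, the 21-hydroxylase gene, was called higher there, at 20.2 ± 12.8 CPM against 0.089 ± 0.077 CPM, a normal level near the limit of detection for which no fold is given, and it has a near-identical pseudogene with which reads could be shared. In male normal colon edgeR called 0 of the 77 list genes tested between genotypes (4 at an unadjusted p under 0.05), and neither DESeq2 nor limma voom called any.

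**Figure D5:**
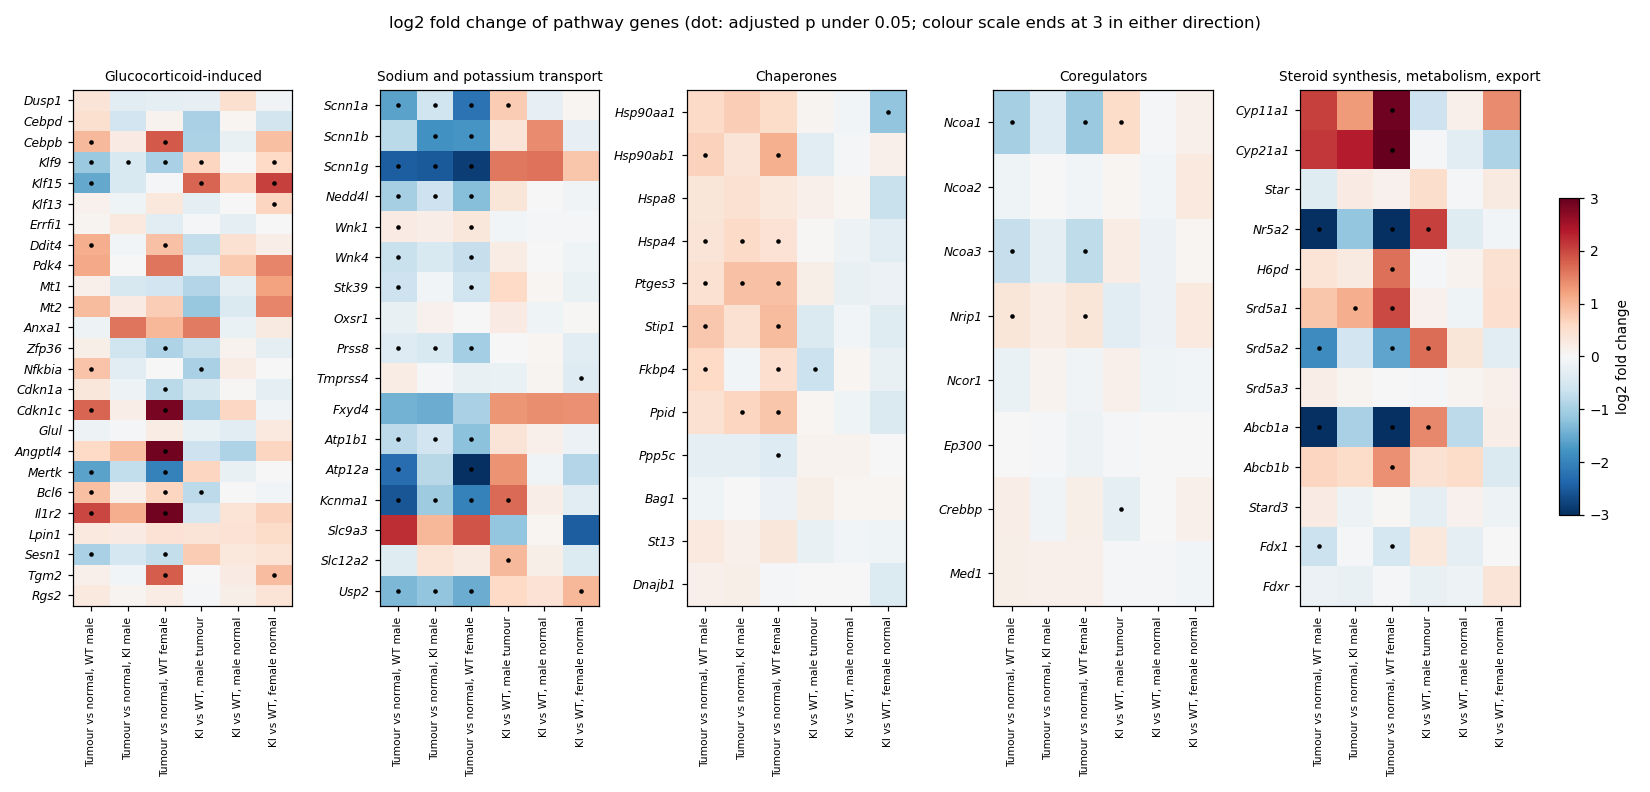
Log2 fold change of genes of the 5 pathway lists as a colour, in the 3 tumour and 3 genotype comparisons, with a dot where the edgeR adjusted p was under 0.05; the colour scale ends at 3 in either direction. Transport genes have medians of -0.80, -0.58 and -1.12 in the 3 tumour comparisons, and chaperones of 0.42 to 0.47.

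The pattern of each member over the 21 libraries was compared with that of 11833 other genes by Pearson's r of log2 CPM, as a description in which all points share libraries and most of the spread lies between tumour and normal colon. Nr3c2 was most like Stim1, a calcium sensor of the endoplasmic reticulum (r = 0.99), and also within the 12 normal (0.95) and 9 tumour libraries (0.99). Hsd11b2 was most like Klk1, a kallikrein (0.99), and Nr3c1 most like the mitochondrial carrier Slc25a36 (0.97). Fkbp5 was most like Scnn1g (0.96, with 0.91 in normal colon and 0.87 in tumours). Sgk1 was most like Klf9 (0.91, with 0.74 in normal colon and 0.94 in tumours), Tsc22d3 most like Kbtbd11 (0.96) and Zbtb16 most like the lysophosphatidic acid receptor Lpar1 (0.96, with 0.62 in normal colon and 0.97 in tumours). For Hsd11b1 the likest gene, Commd1, reached 0.76. Among the members themselves Nr3c2 and Hsd11b2 had r = 0.95 over all libraries, 0.57 in normal colon and 0.92 in tumours.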

How the data were processed

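The authors deposited a table of raw counts per gene for 24062 genes, made per the submitters' processing notes with Trimmomatic, HISAT2 and featureCounts on mm10; their versions, the annotation and the strand setting are not given in the sources used here. The 21 libraries held 3414123 to 26174008 counts, which limits genes such as Hsd11b1. In R 4.3.3, edgeR 4.0.16 filtered genes with filterByExpr by group, scaled by TMM and fitted all 21 libraries in 1 robust quasi-likelihood model with 9 comparisons between groups and 3 interactions, adjusted over all 15936 genes. CPM use the TMM-scaled library sizes, and likeness uses log2 CPM (prior count 2). The model was tested on simulated counts. Lengths, those of the longest transcript of each gene, and positions come from GENCODE vM21 and promoters from RefSeq (GRCm38.p6). Ratios were tested with exact permutation tests. DESeq2 1.42.0, limma 3.58.1 (voom), other scalings, filters and models, and leaving out each library were the alternatives.

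The members and lists were chosen with earlier results of these data known. The text names all members, and from each list up to 3 called genes with the largest change in each direction and 50 or more raw counts on average in a group compared; like genes were ranked over tested genes with a mean of at least 50 counts, and the first of each 3 is given; 2 genes are not reported here by name, though the counts of their lists include them. Same-numbered libraries deviated together in wild-type male tumour and normal colon (correlations of 0.17, 0.17 and 0.21). The labels do not say what the numbers mark, and the main model took no pairs. In no other comparison did all 3 same-numbered pairs exceed 0.1. The 2 knock-in female columns that share 1 header are replicates a and b.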

Additional observations from a re-analysis of the deposited data

Results flagged for a closer look

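The change from normal colon to tumour differed between genotypes in males for both receptors and for 2 of the 77 pathway list genes tested, of which Kcnma1 is given here, by edgeR's interaction test. Of all 15936 genes tested, 240 were called in either direction, and 1.14% were called higher. Nr3c1 fell in wild-type tumours (-1.16) and had a difference of -0.02 in knock-in tumours, an interaction of 1.14 (SE 0.23, edgeR adjusted p = 0.0406). Nr3c2 fell in both (-2.19 and -0.96), by 1.23 less in knock-in males (SE 0.30, edgeR adjusted p = 0.0493). Kcnma1, the BK potassium channel gene, had the largest of these 3 interactions, 1.49 (SE 0.24, edgeR adjusted p = 0.0406). All 3 calls were lost in a fit of only the male groups, with the replicate block and with the GC content and length offset. Smooth muscle and colonocyte markers had medians of 1.44 and 2.19 in this test, with 0 called. Their part in the 3 interactions was not tested.

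The tumour difference differed between wild-type females and males for 3 of the 77 list genes, against 1.12% of all genes. Of the 3, the rule for named genes covers Angptl4 and H6pd. Angptl4, which encodes a lipase inhibitor induced by glucocorticoids and by fasting, had a female-minus-male difference of 2.29 in its tumour change (SE 0.53, edgeR adjusted p = 0.0438), with a rise of 2.89 on the log2 scale in females. H6pd had one of 1.24 (SE 0.29, edgeR adjusted p = 0.0449), with a rise of 1.66 in females. Both calls were lost with the replicate block and in a fit of only these groups, and no member was called in this test.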

How the results depend on the processing

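Of the 96 member results (8 genes in 12 comparisons) 29 were called, and of their 501 recomputed values 424 kept the call, 77 kept the direction without it and 0 changed sign. Of the 67 others, 28 of 1227 values passed the threshold and 39 changed sign, in 16 results. For 71 called results of other named genes, 1000 of 1208 values kept the call and 0 changed sign; these alternatives, and those for the ratios and list counts, were chosen after seeing the data. The cause of these changes was not tested, beyond fewer libraries where one was left out.

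The count of 7 members in wild-type male and in wild-type female tumours held with every library under all settings run, and leaving out 1 library gave 6 to 7 in females. In knock-in males the 4 became 2 in a fit of only the groups compared. Between male tumours of the genotypes the 6 ran from 4 to 8 over the other settings and from 1 to 6 without 1 library. In female normal colon the 2 between genotypes became 1 with DESeq2 size factors, without a low-count filter, with the library numbering as covariate and with a GC content and length offset. That covariate set apart library numbers from 152 up, a possible batch, which were all tumour libraries. It could not adjust a comparison of normal groups, where it entered only through the spread shared by all libraries. The 2 also became 1 in a fit of only the female normal groups, where both calls were lost and Zbtb16 was gained. They became 3 with the DESeq2 Wald test and limma voom, and leaving out 1 library gave 0 to 3. Between the sexes in wild-type tumours the 0 became 1 with the DESeq2 Wald test and 2 with limma voom and with only those groups. In wild-type normal colon the 1 became 0 with library totals, without a filter and with the replicate block, 2 with the DESeq2 Wald test and the offset, and 3 with limma voom, and leaving out 1 library gave 0 to 1. In knock-in normal colon the 0 became 1 with the DESeq2 Wald test and limma voom, and 0 to 2 without 1 library. The 2 receptor interactions became 1 with DESeq2 size factors and without a filter, and 0 with only the male groups, the replicate block (adjusted p = 0.0548 for Nr3c1 and 0.0736 for Nr3c2), the numbering covariate, the offset, and the block with the offset; leaving out 1 library gave 0 to 2.

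Uncalled differences near 0 changed sign. In knock-in male tumours Nr3c1 was at 0.011 with library totals and 0.0038 with the numbering covariate (-0.17 to 0.15 without 1 library), and Hsd11b1 at -0.015 with the block and offset (-0.12 to 0.51). In male normal colon between genotypes Hsd11b2 was at -0.055 with the offset and -0.058 with the block and offset (-0.12 to 0.22), Nr3c2 ran from -0.49 to 0.089 and Sgk1 from -0.028 to 0.53 without 1 library. Between wild-type tumours of the sexes limma voom gave Hsd11b2 -0.015 (-0.41 to 0.39) and Sgk1 0.17 (-0.23 to 0.19). Zbtb16 in wild-type normal colon was at 0.30 with the offset and 0.26 with the block and offset (-0.37 to 0.22), and in knock-in normal colon Hsd11b1 ran from -0.052 to 0.23 and Hsd11b2 from -0.027 to 0.20. In the interaction of sex and tumour Tsc22d3 was at -0.066 with the covariate, -0.066 with the offset and -0.046 with both block and offset (-0.18 to 0.18), Zbtb16 at 0.078 with limma voom, Nr3c1 ran from -0.0012 to 0.29 and Sgk1 from -0.054 to 0.51. In that of sex and genotype Nr3c1 ran from -0.075 to 0.32 and Nr3c2 from -0.22 to 0.36.

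The replicate block gave each replicate number 1 effect shared by all groups it held, so it did not model pairs within a single comparison. It could not hold the knock-in female libraries and so used 18. With the block the wild-type male tumour comparison kept 7 members called. Knock-in male and wild-type female tumours kept their 4 and 7 calls. Between male tumours of the genotypes 6 were called with the block, with Hsd11b2 lost (adjusted p = 0.0707) and Sgk1 gained (0.0291). Counts over all genes moved more: the 240 interaction calls of genotype and tumour ran from 0 (the offset) to 1326 (DESeq2 Wald test), and the 3246 calls in knock-in males from 724 to 3829, the 2315 between male tumours from 683 to 3011, the 2534 between wild-type normal sexes from 1623 to 5317, the 2545 between female normal genotypes from 2198 to 4457, the 137 between wild-type tumours of the sexes from 28 to 2916, the 93 between knock-in normal sexes from 17 to 666, and the 179 and 405 of the other interactions from 23 to 1445 and from 254 to 1093. The 2 calls in male normal colon ran from 0 to 6. Library totals moved the all-gene median of wild-type female tumours from 0.01 to 0.15 and of the sex by tumour interaction from 0.03 to 0.13. It also moved the higher share of female normal genotype calls from 56.1% to 72.8% (34.3% with the offset) and of wild-type female tumour calls from 51.0% to 62.1%. The shortest coding transcript as length raised the levels per kb of every member but Hsd11b2. The shortest entries of Nr3c1, Nr3c2, Sgk1 and Hsd11b1 are fragments. In wild-type male normal colon Fkbp5 went from 19.2 to 95.2 CPM per kb, Tsc22d3 from 23.5 to 70.9 and Zbtb16 from 7.24 to 14.8. The ratio differences moved by less than 1 SD without any 1 library. With 3 libraries a group no other outcome was possible, so this says nothing about their stability.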
